A study of Homo sapiens with 5 samples.

Results

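A set of 10 genes that restrain mitogen-activated protein kinase (MAPK) signalling were followed in MCF10A SAM cells after activation of JUN. They are the dual-specificity phosphatases DUSP1, DUSP4, DUSP5, DUSP6, DUSP10 and DUSP16, the Sprouty genes SPRY2 and SPRY4, and the Sprouty-related genes SPRED1 and SPRED2. The members were chosen by name, as rows whose Entrez identifier maps to these symbols, and all 10 were found among the 23459 genes of the table. MCF10A is an immortalised, non-tumorigenic human mammary epithelial cell line, grown here with serum, insulin, hydrocortisone, cholera toxin and EGF (20 ng/ml), so the receptor upstream of the ERK pathway was stimulated in both groups. All cells were clonal derivatives that carry dCas9-VP64 and MCP-p65-HSF1, the activator parts of the SAM system, which a guide RNA directs to a promoter. The control cells (NTC, 3 libraries) carried a non-targeting guide and the others (sgJUN#1, 2 libraries) a guide against the JUN promoter, so that 1 guide stands for JUN activation.

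MAPKs are switched on by phosphorylation of a threonine and a tyrosine in their activation loop, and the DUSPs switch them off by removing both phosphates. Many DUSP and Sprouty genes are themselves transcribed in response to ERK, JNK or p38 activity, which makes their transcripts a readout of the pathway they restrain. Sprouty and SPRED proteins act further upstream, between the receptor and RAF, and SPRED1 and SPRED2 bring the RAS inactivator neurofibromin (NF1) to the membrane. JUN is a substrate of JNK and, as a part of AP-1, binds sites of the form TGACTCA or, with ATF proteins, the cAMP response element (CRE) TGACGTCA. The comparison asked whether the transcripts of this feedback layer differed when JUN was raised.

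The promoter letters of a pair of members are shown first, since these motifs are what JUN complexes can bind. The RefSeq table (GRCh38.p14) held 12 promoters of 8 members and none of DUSP4 or DUSP5, which were not searched, and the 250 bases before each start were searched on both strands, where the motifs cannot overlap each other. None of these 12 promoters held TGACTCA or its reverse complement TGAGTCA, against 4.203% of 35116 promoters. The CRE was found in 1 of the 12, that of DUSP1, against 1.646% of all promoters. Below, DUSP1 stands at chr5:172771196-172771445 and DUSP6, the member with the lowest p-value, at chr12:89352502-89352751, both on the minus strand and written 5′ to 3′. Capitals mark the CRE, whose first base lies at -125 relative to the start.
DUSP1: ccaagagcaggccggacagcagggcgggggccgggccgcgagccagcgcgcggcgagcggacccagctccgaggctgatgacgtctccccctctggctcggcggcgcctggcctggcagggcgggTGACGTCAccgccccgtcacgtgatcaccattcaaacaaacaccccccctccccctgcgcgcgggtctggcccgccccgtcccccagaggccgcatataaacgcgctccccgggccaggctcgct
DUSP6: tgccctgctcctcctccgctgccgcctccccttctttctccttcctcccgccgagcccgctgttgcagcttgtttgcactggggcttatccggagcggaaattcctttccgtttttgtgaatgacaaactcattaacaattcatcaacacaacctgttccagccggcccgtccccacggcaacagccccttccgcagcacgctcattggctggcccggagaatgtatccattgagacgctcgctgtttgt
A match is a sequence of letters and not a measured binding site, and no match says only that the letters are not in these windows.

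JUN itself (Entrez 3725, GRCh37 chromosome 1, 59242517 to 59249720) checked the labels. The JUN level was 25.03, 36.2 and 9.32 CPM in NTC replicates 1, 2 and 3 and 172 and 265 CPM in sgJUN#1 replicates 1 and 2, where CPM are counts scaled to a common library size after TMM normalisation. Neither sgJUN#1 library overlapped the NTC range, and the log2 fold change was 3.25 (95% interval 2.12 to 4.38). The edgeR adjusted p-value was 0.0733, and JUN passed the threshold of 0.05 with DESeq2 (7.4e-12). Library totals ran from 2455627 to 4988062 counts, so that 3 counts, the limit which a count of 0 allows, stood for 0.601 to 1.22 CPM. The epithelial markers CDH1, KRT5, KRT18 and LAMA3 had 29.7 CPM or more in each library, while KRT14 and KRT17 were low, with at most 3.26 and 16.3 CPM. None of these 6 passed the edgeR threshold. Of 8 markers of other cells, COL1A2, PECAM1 and ALB were at or near 0, CD14 reached 23.7 CPM in NTC replicate 3, and the endothelial marker VWF had 5.23 to 8.43 CPM in all 5 libraries. The summed level of these 8 markers was 10.6 to 37.04 CPM in NTC and 14.0 to 16.9 CPM in sgJUN#1, and its part in the results was not tested. Counts of NTC replicate 3 differed most from those of its group, where chi-square divided by its degrees of freedom was 18.4 and 13.7 against NTC replicates 1 and 2, beside 7.75 between those and 7.62 between the sgJUN#1 libraries.

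None of the 10 feedback genes passed the threshold. Over all 13616 tested genes 28 were called by edgeR, 0.206% of them, with 0.0808% higher and 0.125% lower in sgJUN#1. All 10 members had enough counts to be tested. At an unadjusted edgeR p-value under 0.05 there was 1 member, DUSP6, against 8.38% of all tested genes, and DESeq2 and limma-voom also gave 0 members past the threshold and DUSP6 alone at an unadjusted p-value under 0.05. The log2 fold changes ran from -0.25 for DUSP1 to 1.01 for DUSP10. In total 7 members had a positive value and 3 a negative one, with a median of 0.24 beside -0.0082 over all tested genes. That median was 0.11 without sgJUN#1 replicate 2 and 0.12 without NTC replicate 3. Both sgJUN#1 libraries stood above all NTC libraries in 3 members (DUSP6, SPRED1 and SPRED2), as in 12.2% of all tested genes, and below them in 0, as in 12.8%, so that groups without overlap made up 3 of the 10 members beside 25% of all tested genes. With 3 against 2 libraries an exact two-sided permutation test cannot give less than 0.1, which only DUSP6 reached among the members. These are bulk samples, in which fewer cells that use a gene and less RNA per cell cannot be told apart. The plot of CPM by library shows the values that follow.

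**Figure D1:**
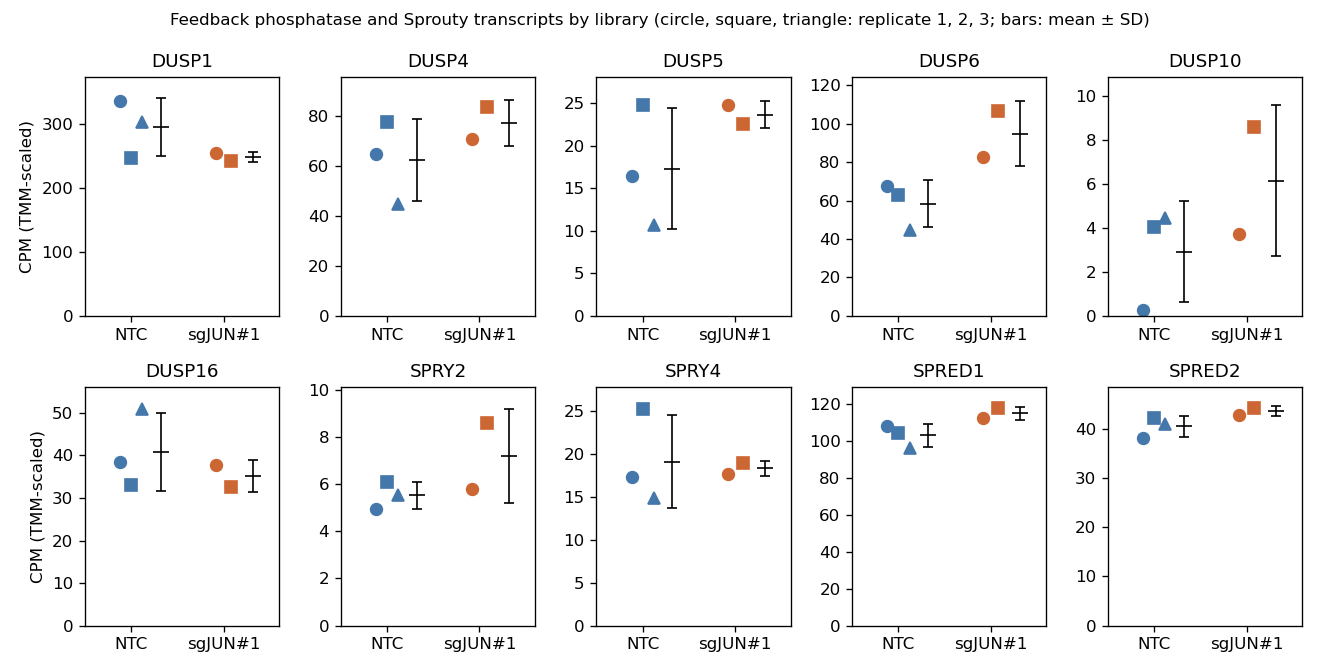
CPM (TMM-scaled, linear axes from 0) of the 10 members in each library, with NTC in blue and sgJUN#1 in orange, symbols for the replicate number, and the mean ± SD of each group in black (n = 3 and n = 2). The groups are apart in DUSP6, SPRED1 and SPRED2 and overlap in the other panels, and the NTC libraries spread widely in DUSP5 and DUSP10.

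The phosphatases that act on ERK included the member with the lowest p-value. DUSP6 (MKP-3, GRCh37 chromosome 12, 89741012 to 89746278) is the cytoplasmic phosphatase of ERK, and a standard transcript readout of ERK activity. NTC replicates 1, 2 and 3 had 67.7, 62.7 and 44.8 CPM, and sgJUN#1 replicates 1 and 2 had 82.8 and 107 CPM. Both sgJUN#1 libraries were above each NTC library, and the gap from the highest NTC to the lowest sgJUN#1 library was smaller than the range of the NTC libraries. The group means were 58.4 ± 12.02 CPM (SD, n = 3) and 94.7 ± 16.9 CPM (SD, n = 2). The log2 fold change was 0.70 (SE 0.236), which is 1.62-fold with a 95% interval of 1.12 to 2.34. With an unadjusted p-value of 0.0150 it ranked 458th of 13616 genes, and edgeR's adjusted p-value was 0.445. The log2 fold change was 0.51 without sgJUN#1 replicate 2 and 0.53 without NTC replicate 3.

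DUSP5 (GRCh37 chromosome 10, 112257665 to 112271291), the nuclear phosphatase of ERK, had fewer counts, from 48 to 120 in a library. Its levels were 16.5, 24.8 and 10.6 CPM in NTC and 24.8 and 22.5 CPM in sgJUN#1. NTC replicate 2 reached the level of both sgJUN#1 libraries, so the groups overlapped. The log2 fold change of 0.48 (95% interval -0.28 to 1.24, edgeR adjusted p-value 0.753) became 0.81 without NTC replicate 2 and 0.22 without NTC replicate 3. The value for DUSP5 thus moved with single NTC libraries by more than 1.5 times.

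DUSP1 and DUSP4 are nuclear, inducible phosphatases with wider targets, DUSP1 (MKP-1) acting on p38, JNK and ERK and DUSP4 (MKP-2) on ERK and JNK. DUSP1 (GRCh37 chromosome 5, 172195099 to 172198198) was the member with the most counts, from 605 to 1366 in a library. The NTC libraries had 335, 246 and 303 CPM and the sgJUN#1 libraries 254 and 242 CPM. Replicate 1 of sgJUN#1 lay in the lower part of the NTC range and replicate 2 just below it. The groups overlapped through NTC replicate 2. The log2 fold change was -0.25 (95% interval -0.71 to 0.21, edgeR adjusted p-value 0.788), and -0.15 without NTC replicate 1. On the fold scale that interval ends at 1.15, while JUN stood 9.51-fold higher.

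DUSP4 (GRCh37 chromosome 8, 29190581 to 29208201) had 64.6, 77.7 and 44.8 CPM in NTC and 70.8 and 83.7 CPM in sgJUN#1. The library sgJUN#1 replicate 2 was the highest and NTC replicate 3 the lowest, while the others were intermingled. A log2 fold change of 0.31 (95% interval -0.25 to 0.88) had an edgeR adjusted p-value of 0.785. It ran from 0.12 without NTC replicate 3 to 0.50 without NTC replicate 2.

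The phosphatases that prefer JNK and p38 over ERK went in opposite directions without passing the test. DUSP16 (MKP-7, GRCh37 chromosome 12, 12626216 to 12715797), which is known to act on JNK, had 38.5, 32.97 and 51.0 CPM in NTC and 37.8 and 32.6 CPM in sgJUN#1. NTC replicate 3 alone was high, and without it the log2 fold change of -0.22 (95% interval -0.77 to 0.33, edgeR adjusted p-value 0.860) was -0.022. DUSP10 (MKP-5, GRCh37 chromosome 1, 221874766 to 221915431) was near the limit of detection. It had 1, 10 and 20 counts in NTC and 18 and 24 in sgJUN#1, or 0.275, 4.07 and 4.44 CPM and 3.72 and 8.59 CPM. NTC replicate 1 was the lowest, and its single count has an exact 95% Poisson interval of 0.0253 to 5.57 counts, which covers counting error only. DUSP10 had the largest log2 fold change of the members, 1.01, and also the widest interval (-0.67 to 2.69, edgeR adjusted p-value 0.767). Without NTC replicate 1 the value was 0.45, without sgJUN#1 replicate 2 it was 0.36 and without NTC replicate 3 it was 1.61.

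SPRY2 and SPRY4 are ERK-induced inhibitors of receptor tyrosine kinase signalling. SPRY2 (GRCh37 chromosome 13, 80910111 to 80915261) had 15 to 28 counts in a library, at 4.95, 6.11 and 5.55 CPM in NTC and 5.78 and 8.59 CPM in sgJUN#1. Replicate 2 of sgJUN#1 was above the NTC range and replicate 1 inside it. The log2 fold change was 0.36 (95% interval -0.46 to 1.17, edgeR adjusted p-value 0.840), and 0.078 without sgJUN#1 replicate 2. SPRY4 (GRCh37 chromosome 5, 141689992 to 141706020) had 17.3, 25.2 and 14.9 CPM in NTC and 17.8 and 19.0 CPM in sgJUN#1, which placed both sgJUN#1 libraries inside the NTC range. Its log2 fold change of -0.043 (95% interval -0.69 to 0.61, edgeR adjusted p-value 0.980) was close to 0, and turned to 0.19 without NTC replicate 2.

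The SPRED genes varied least. SPRED1 (GRCh37 chromosome 15, 38545037 to 38649450) had 108, 105 and 96.3 CPM in NTC and 113 and 118 CPM in sgJUN#1. SPRED2 (GRCh37 chromosome 2, 65537985 to 65659771) had 38.2, 42.3 and 41.0 CPM in NTC and 42.9 and 44.4 CPM in sgJUN#1. In both genes the groups did not overlap, by narrow margins. Log2 fold changes of 0.16 for SPRED1 and 0.11 for SPRED2 had edgeR adjusted p-values of 0.864 and 0.928. Their 95% intervals were 0.84-fold to 1.49-fold and 0.79-fold to 1.47-fold. Among the NTC libraries the SD of log2 CPM was 0.087 for SPRED1 and 0.074 for SPRED2, against a median of 0.29 over all tested genes. It was 0.59 for DUSP5 and 1.47 for DUSP10, so members differed in how tightly the control libraries fixed their level.

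**Figure D2:**
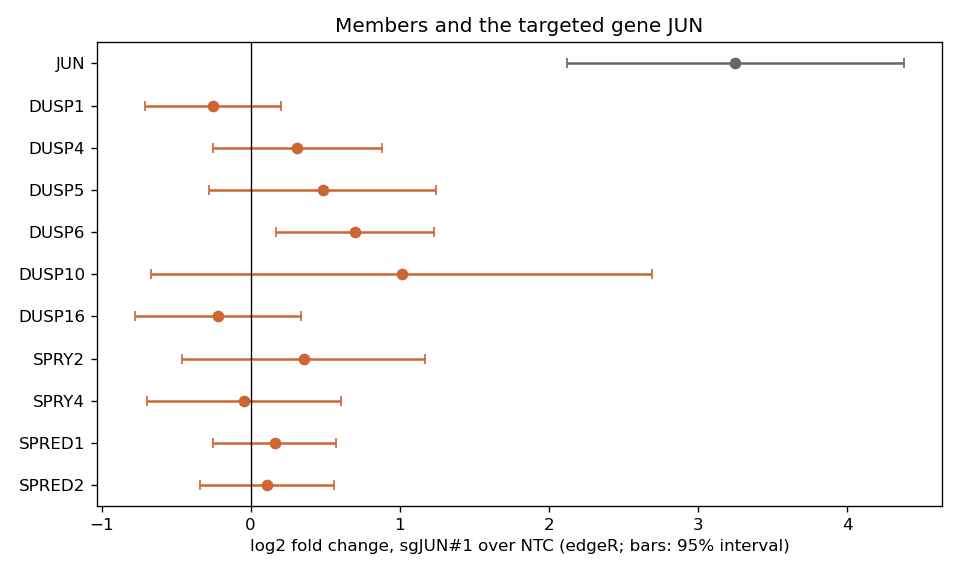
Log2 fold change of sgJUN#1 over NTC from edgeR for JUN (grey) and the 10 members (orange), with 95% intervals as bars and 0 as a vertical line. JUN stands at 3.25, and among the members only the interval of DUSP6, 0.17 to 1.23, leaves out 0 before adjustment.

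Certain libraries held the extreme value of many members at once. In NTC replicate 3, 5 of the 10 members (DUSP4, DUSP5, DUSP6, SPRY4 and SPRED1) were at their lowest of all 5 libraries, and DUSP16 at its highest. JUN was lowest in the same library. In sgJUN#1 replicate 2, 6 members (DUSP4, DUSP6, DUSP10, SPRY2, SPRED1 and SPRED2) were at their highest and 2 (DUSP1 and DUSP16) at their lowest, and JUN was highest there. These are counts over 5 libraries, with no test. The share of all tested genes at an extreme in each library was not computed, and NTC replicate 3 differed most from its group across the table. The counts thus cannot be read as a trait of the members or as following JUN. Added together, the ERK phosphatases DUSP5 and DUSP6 took 84.2, 87.5 and 55.5 CPM in NTC and 108 and 129 CPM in sgJUN#1, while DUSP1 and DUSP4 took 400, 324 and 348 CPM and 324 and 326 CPM. The sum for DUSP5 and DUSP6 did not overlap between the groups, which follows DUSP6, and that for DUSP1 and DUSP4 did. The sum for SPRED1 and SPRED2 did not overlap either, with 147, 147 and 137 CPM in NTC and 156 and 162 CPM in sgJUN#1. Those for DUSP10 with DUSP16 and for SPRY2 with SPRY4 overlapped. The plot with libraries left out shows how far single libraries moved each value.

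**Figure D3:**
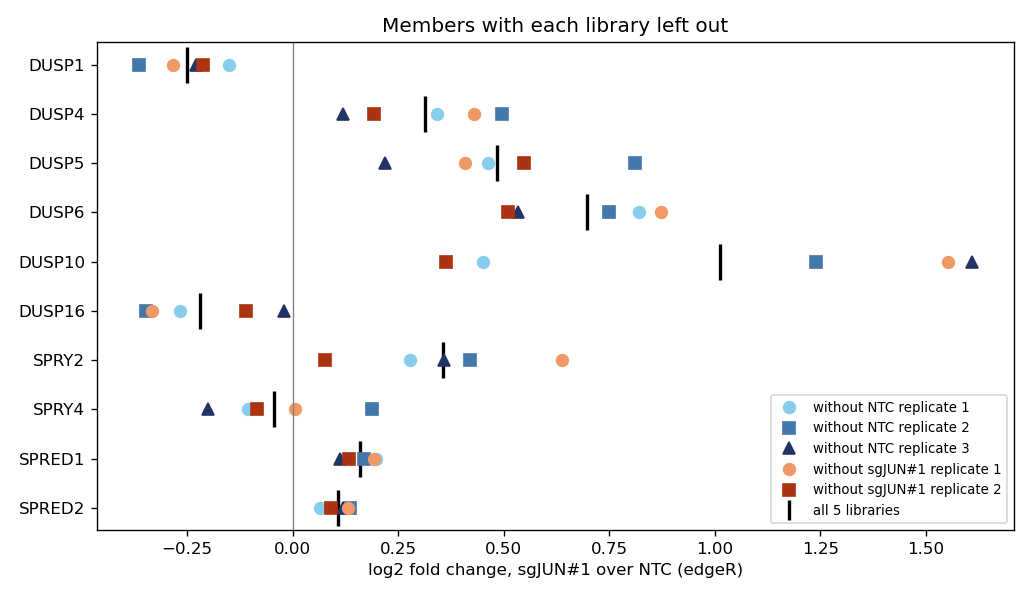
Each member's log2 fold change (horizontal axis, edgeR), with a black mark for all 5 libraries and coloured symbols for the fits that left out 1 library. DUSP6 stays between 0.51 and 0.87 and SPRED1 between 0.11 and 0.20, whereas DUSP10 ranges from 0.36 to 1.61 and SPRY4 lies on both sides of 0.

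The remaining family members added no call. Of DUSP2, DUSP7, DUSP8, DUSP9, SPRY1, SPRY3 and SPRED3, 3 were tested and 0 passed the edgeR threshold, and 0 had an unadjusted p-value under 0.05. DUSP7, another phosphatase of ERK, had a log2 fold change of 0.39 (edgeR adjusted p-value 0.769), and the inducible nuclear phosphatase DUSP2 had 1.40 (0.703) at 4.33 CPM or less. With 1 library left out, both values fell most without sgJUN#1 replicate 1, to 0.0099 for DUSP7 and 0.53 for DUSP2. Without NTC replicate 3 they were 0.19 for DUSP7 and 0.80 for DUSP2. The 4 that were not tested, DUSP8, DUSP9, SPRY1 and SPRY3, had at most 11 counts in any library. Of the atypical phosphatases DUSP3, DUSP14 and DUSP22, 0 of 3 passed, and DUSP3 (0.36) and DUSP22 (0.28, and 0.18 without NTC replicate 1) had the lowest p-values. DUSP3 had 24.8, 23.6 and 27.7 CPM in NTC and 34.9 and 30.4 CPM in sgJUN#1. DUSP22 had 30.3, 32.6 and 41.7 CPM in NTC and 42.1 and 42.6 CPM in sgJUN#1. In both genes the sgJUN#1 libraries stood above all NTC libraries, as in 12.2% of all tested genes, and in DUSP14 the groups overlapped.

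Transcripts that are known to follow ERK activity had values of both signs. Of 11 such genes (ETV4, ETV5, EPHA2, EPHA4, PHLDA1, CCND1, FOSL1, EGR1, IER3, ERRFI1 and MYC), all were tested and 0 passed the edgeR threshold, with 6 positive and 5 negative values and a median log2 fold change of 0.30. An unadjusted edgeR p-value under 0.05 was given to 4 of the 11, against 8.38% of all tested genes, and the list was not tested as a set. PHLDA1, which like DUSP6 belongs to signatures of MAPK activity, had 69.9, 77.3 and 32.2 CPM in NTC and 122 and 162 CPM in sgJUN#1. The log2 difference of 1.25 (SE 0.339) had an adjusted p-value of 0.294 in edgeR and of 0.0477 in DESeq2. ERRFI1 (MIG6), a feedback inhibitor of EGFR, had 137, 120 and 429 CPM in NTC and 58.8 and 45.8 CPM in sgJUN#1. All sgJUN#1 values were lower, and NTC replicate 3 was high, and the log2 difference was -2.13 (SE 0.609), at an adjusted p-value of 0.397 in edgeR. Without NTC replicate 3 the value was -1.29 and passed, at an edgeR adjusted p-value of 0.0263. The others with an unadjusted p-value under 0.05, named after their values were seen, were EGR1 (0.87, 95% interval 0.062 to 1.68) and ETV4 (-0.88, -1.71 to -0.048). For EGR1 the groups overlapped, with 28.9, 46.4 and 25.1 CPM in NTC and 81.7 and 38.3 CPM in sgJUN#1, and its value was 0.21 without sgJUN#1 replicate 1. ETV4 and PHLDA1 thus had opposite signs, and ETV5 had -0.020.

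Among the genes of the kinase cascades themselves, 1 passed the edgeR threshold, in the JNK and p38 list, against 0.206% of all tested genes. These lists were chosen with earlier results of these data known, so the call is no separate finding about a branch. Of 22 genes of the RAS-ERK cascade, from the receptor to the kinases, 0 passed the edgeR threshold and 0 had an unadjusted p-value under 0.05. The median log2 fold change was -0.034. EGFR had the lowest p-value, with 291, 390 and 673 CPM in NTC and 278 and 287 CPM in sgJUN#1, which is -0.68 on the log2 scale (edgeR adjusted p-value 0.634). Without NTC replicate 3 the EGFR value was -0.27. PTPN11, which encodes the phosphatase SHP2, followed with 0.30 (0.744), and 0.19 without sgJUN#1 replicate 1. In the JNK and p38 list 10 of 11 genes were tested and 1 passed, MAP2K4, which encodes a kinase that phosphorylates JNK. MAP2K4 fell from 166, 145 and 168 CPM in NTC to 61.9 and 61.2 CPM in sgJUN#1, which is -1.38 on the log2 scale (SE 0.197) at an adjusted p-value of 0.0339 in edgeR. It did not pass without NTC replicate 1 (0.161) or without sgJUN#1 replicate 1 (0.213) or 2 (0.244), with log2 fold changes of -1.35, -1.38 and -1.36. The JNK genes MAPK8 and MAPK9 had -0.095 and -0.22 (edgeR adjusted p-values 0.954 and 0.861). MAPK13 (p38 delta), named after its values were seen, had 13.2, 15.1 and 9.54 CPM in NTC and 39.8 and 20.4 CPM in sgJUN#1, which is 1.29 on the log2 scale (edgeR adjusted p-value 0.264) and 0.71 without sgJUN#1 replicate 1.

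**Figure D4:**
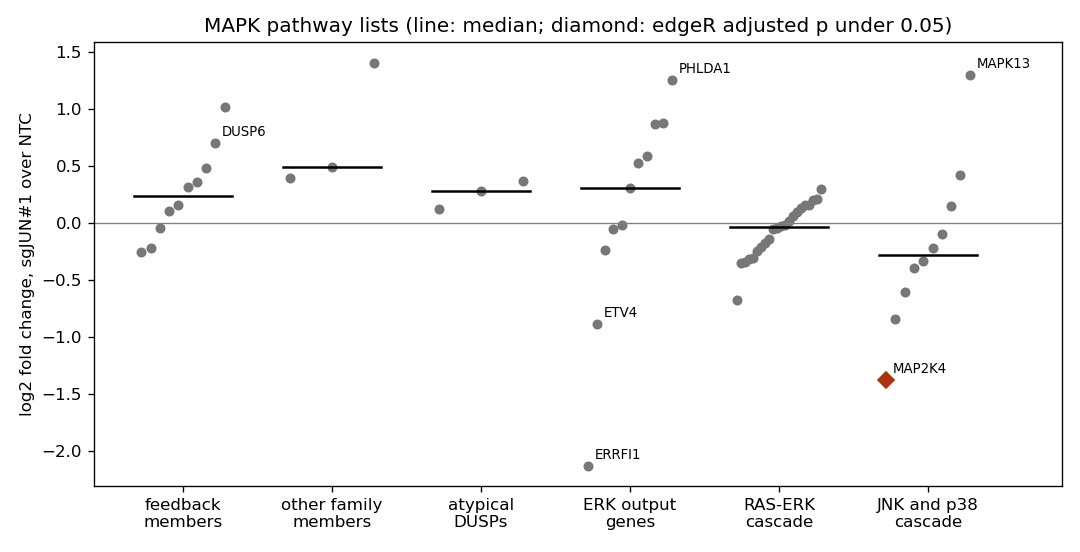
Log2 fold change of sgJUN#1 over NTC (vertical axis, edgeR) for each tested gene of the 6 lists, with the median of a list as a line and a diamond where the adjusted p-value is under 0.05. MAP2K4 at -1.38 is the 1 diamond, and the feedback members lie between -0.25 and 1.01.

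Some members share their position with a gene on the opposite strand, which could share reads where counting ignores strand. The GENCODE annotation places non-coding genes opposite DUSP1, DUSP6, DUSP16 and SPRY4, the last being SPRY4-AS1, and 1 on the same strand inside SPRED2. SPRY4-AS1 has no row under that name in the table. The others carry only Ensembl identifiers, which cannot match a gene symbol, so whether they have rows under other names is not known. The part of such reads in the counts was not tested.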

How the data were processed

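RNA of 5 libraries was sequenced from the 3′ end with the QuantSeq forward kit of Lexogen. Per the labels and the study's methods, the authors trimmed reads with cutadapt 4.2, aligned them to hg19 with Bowtie2 2.3.5.1 (versions from the submitters' processing notes; the study's methods name another Bowtie2 version) and obtained counts in R by countOverlaps. Each deposited value is a raw count for an Entrez gene, not normalised. Annotation, strand, multiple alignments and molecular identifiers are not given in the sources used here, so PCR copies may count as reads, and intervals on counts cover counting error only.

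Symbols were assigned to 99.36% of the genes by RefSeq gene identifier, and positions are those of GENCODE 44 on GRCh37, which is hg19. The main test was edgeR 4.0.16 (R 4.3.3, quasi-likelihood F test, TMM, filterByExpr, robust estimation, group only). Benjamini-Hochberg adjustment ran over 13616 genes. The SE is the log2 fold change over the square root of F, and 95% intervals use the t distribution. Alternatives were DESeq2 1.42.0, limma-voom (limma 3.58.1), other scalings, other filters, thinned counts, a replicate block and each library left out. The fits were also run on simulated counts, with the same spread setting for every gene and no outlying library. That checks the code and not how the fits behave on these libraries. Replicate pairs differed by more than sampling noise (chi-square per degree of freedom of 7.62 to 18.4). The study calls its replicates biological, but the labels name no separate cultures, so p-values measure the spread between these samples.

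The members and lists were chosen with earlier results of these data known. The genes named are JUN, all members, and in each pathway list the genes past the threshold or else the 2 with the lowest p-values. For the member with the lowest p-value the 5 genes with the most similar profile are named.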

Additional observations from a re-analysis of the deposited data

How the results depend on the processing

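No member passed the threshold in any of 13 alternatives, and 8 of the 10 members kept their sign in each alternative that tested them. DUSP6 ran from 0.51 to 0.87 on the log2 scale, with adjusted p-values of 0.296 to 0.962 over edgeR, DESeq2 and limma. In each alternative with at least 2 libraries per group, DUSP6 had an unadjusted p-value under 0.05 in the fit used (edgeR, DESeq2 or limma-voom). An unadjusted edgeR p-value under 0.05 was also given to DUSP10 with the replicate block and to DUSP5 without NTC replicate 2. Fits with a lone sgJUN#1 library are left out of this statement. There DUSP6 had 0.51 without sgJUN#1 replicate 2 and 0.87 without sgJUN#1 replicate 1. DUSP10 was not tested with at least 10 counts in every library. SPRY4 turned to 0.011 with limma-voom, to 0.19 without NTC replicate 2 and to 0.0050 without sgJUN#1 replicate 1 (-0.20 without NTC replicate 3), and SPRED2 to -0.022 with thinned counts. The median of the members ran from 0.11 to 0.30 when 1 library was left out and was 0.12 with the replicate block. Replicate number 3 occurs only in NTC, so with the block NTC replicate 3 does not enter the group difference. Log2 fold changes with the block are therefore close to those without NTC replicate 3, where the median was also 0.12. These 2 settings are not separate checks.

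The count of 28 genes was 136 with DESeq2, 148 with no filter, 18 with at least 10 counts in every library, 103 with the replicate block and 10 to 57 with 1 library left out. Of the pathway lists, 2 genes passed with DESeq2 (MAP2K4 and PHLDA1), 2 with no filter (MAP2K4 and MAPK13), 2 with the replicate block (ERRFI1 and MAP2K4), 0 with thinned counts, where MAP2K4 had an edgeR adjusted p-value of 0.0557, and 0 to 2 with 1 library left out. EGFR was -0.25 with the replicate block. JUN passed with DESeq2 (3.24, adjusted p-value 7.4e-12), thinned counts (3.20, edgeR adjusted p-value 0.0332) and the replicate block (2.82, 1.2e-04), as well as without NTC replicate 2 (edgeR adjusted p-value 0.0144) or 3 (0.0012). It missed the threshold in the other 8 of 13 alternatives, with adjusted p-values of up to 0.322, and ran from 2.84 to 3.68 with 1 library left out. The cause was not tested. With the lone sgJUN#1 library of 2 of these fits, its spread is assumed to be that of NTC.

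The groups share the replicate numbers 1 and 2, but no label says that a number marks a shared day. Across genes, the log2 CPM difference of replicate 1 from replicate 2 in NTC had a correlation of 0.015 with that in sgJUN#1, over 2 pairs, and the reported values use no replicate block. The depth limits DUSP10 and SPRY2 most, with at most 28 counts.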

Other observations

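The genes with the profile most like that of DUSP6 were sought by the root mean square difference of centred log2 CPM over the 5 libraries. They were LNCOC1 (0.0495), STON2 (0.0574), MED7 (0.0583), ATP6V0D1 (0.0740) and SLC35C1 (0.0743), while DUSP6 itself had a root mean square of 0.414 around its own mean. None of these 5 passed the edgeR threshold, with adjusted p-values of 0.452 to 0.626. Since they were chosen for a profile close to that of DUSP6 (edgeR adjusted p-value 0.445), this is no separate result.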
